A study of Mus musculus with 4 samples.

Results

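A set of 46 genes of the G2 phase and of mitosis were followed in cultured spermatogonia: Cdk1 with its activating phosphatases and inhibitory kinases, the Polo and Aurora kinases, the spindle checkpoint, the kinetochore, the anaphase machinery, and the motors and scaffolds of the spindle and the dividing cell. They were the 46 of 55421 genes of the deposited count table whose symbol was on a list of such genes. The rule itself used no measured value, but the list was chosen with earlier results of these data known. All 46 passed the filter on low counts. RNA was sequenced from primary cultures of CD1 mouse spermatogonia (spermatogonial stem cell or SSC culture) in 2 groups of 2 libraries. Veh cultures were held in complete SSC medium, and NRRA cultures received retinoic acid (RA) in a nutrient restriction medium, that is complete medium diluted strongly with Earle's balanced salt solution. The comparison addresses whether the transcriptome of SSC culture in the CD1 background responds to NRRA, which the study had examined mainly in an F1 hybrid background.

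No genetic change or transgene is named for either group. The testes came from 6-day-old pups, treatments of SSC cultures lasted 2 days by the methods, and the labels give N2 supplement with bFGF and GDNF at 10 ng/ml each for the cultures of both groups. By the methods, the salt solution of the nutrient restriction medium dilutes the whole of the complete medium, growth factors included, and they list GDNF at another concentration, so that growth factor levels during the treatment may have differed between the groups. All cultures grew on mouse embryonic fibroblast (MEF) feeder cells from outbred CF1 mice, whose division had been stopped by irradiation, so that each library held RNA of both cell types. Neither RA nor nutrient restriction was given alone in this background, and their effects cannot be told apart here. By the study's reporting, sequencing replicates were biologically independent. From which cultures or mice these libraries came is not stated in the labels, and p-values measure the spread between these libraries.

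As background, entry into mitosis is set by Cdk1, which Wee1 and Pkmyt1 hold inactive by phosphorylation and the Cdc25 phosphatases release. Once the chromosomes are attached by their kinetochores to the spindle, the spindle checkpoint falls silent, Cdc20 activates the anaphase-promoting complex (APC/C), and separase cuts the cohesin that joins sister chromatids. Spermatogonia divide by mitosis, and the same kinases and checkpoint proteins serve the meiotic divisions that follow a long prophase.

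The libraries held between 28022265 and 31604769 counts. Levels are given as CPM, which are counts scaled to a common library size after TMM adjustment. The check of the treatment was clear, since Stra8, a gene induced by RA in germ cells, stood at 9.62 and 10.1 CPM in Veh and at 1864 and 1853 CPM in NRRA. The 9 markers of undifferentiated spermatogonia summed to 1791 and 1765 CPM in Veh and to 333 and 329 CPM in NRRA. The 10 germ cell markers summed to 1945 and 2006 CPM in Veh and to 2073 and 2069 CPM in NRRA. Of these 10, 4 were called higher and 4 lower, with log2 fold changes from -0.45 (Tdrd1) to 1.40 (Sycp3, a meiotic gene). The 18 fibroblast markers summed to 10231 and 10111 CPM in Veh and to 8024 and 7831 CPM in NRRA, and 15 of them fell and 1 rose. The 8 markers of Sertoli and Leydig cells summed to 41.4 and 45.2 CPM in Veh and to 24.8 and 25.3 CPM in NRRA, where Sox9 fell (log2 fold change -1.59), Star rose (0.31), Wt1 (-0.28) and Gata4 (0.48) were not called, and Amh, Cyp11a1, Hsd3b1 and Insl3 were under the filter. Among blood and immune cell markers, Hbb-bs had a count of 0 in every library and Ptprc had between 6 and 12 counts. In bulk RNA, a different number of cells of a type and a different amount of RNA per cell cannot be told apart, and the part of the lower feeder and Sox9 signal in the values that follow was not tested.

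The mitotic genes moved little with NRRA, and they did not move as a block. Of the 46 genes, 26 were higher in NRRA (56.5%) and 10 were lower (21.7%) by edgeR's quasi-likelihood test at a Benjamini-Hochberg adjusted p under 0.05, and 10 did not pass the threshold. Among all 20232 genes tested, 27.9% were higher and 28.4% were lower, together 56.4%. With DESeq2, the method that the study names, 10 of the calls among the 46 genes were lost, 9 of them higher and 1 lower. Calls over all genes also became fewer there, with 4252 higher and 4314 lower against 5654 and 5752. The calls rested on small differences with small errors. The log2 fold changes of the 46 genes ran from -0.38 (Cdca8) to 0.89 (Aurkc), with a median of 0.12 (SD 0.0080 over the 4 ways to pair an NRRA with a Veh library) and a median SE of 0.041, while the median over all genes tested was 0.00 with a median SE of 0.10.

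With all libraries, no mitotic gene reached a 2-fold difference, against 13.3% of all tested genes that were called with at least 2-fold. An absolute log2 fold change of 0.5 or more was seen for 3 of the 46 genes, Aurkc, Cdc25c and Pkmyt1 (6.52%), against 34.7% of all tested genes. The median absolute log2 fold change was 0.18 in the mitotic genes and 0.33 over all genes tested. Genes with few counts and large SE stand among all genes tested (median SE 0.10 against 0.041 in the mitotic genes), and noise widens their values. How much of the contrast this makes up was not tested. Both NRRA libraries lay above both Veh libraries for 28 mitotic genes and below them for 14, and the groups overlapped for Plk1, Ndc80, Ube2c and Kif2c. Over all tested genes, 38.1% lay above and 38.6% below, together 76.7%. The summed level of the 46 genes was 5502 and 5468 CPM in Veh and 5513 and 5568 CPM in NRRA, on the TMM scale. As a share of all counts, without that scaling, it was 0.532% and 0.530% in Veh and 0.568% and 0.574% in NRRA. With unscaled library sizes the split was 30 higher and 6 lower, and the share of all calls that were higher rose from 49.6% to 60.3%.

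**Figure D1:**
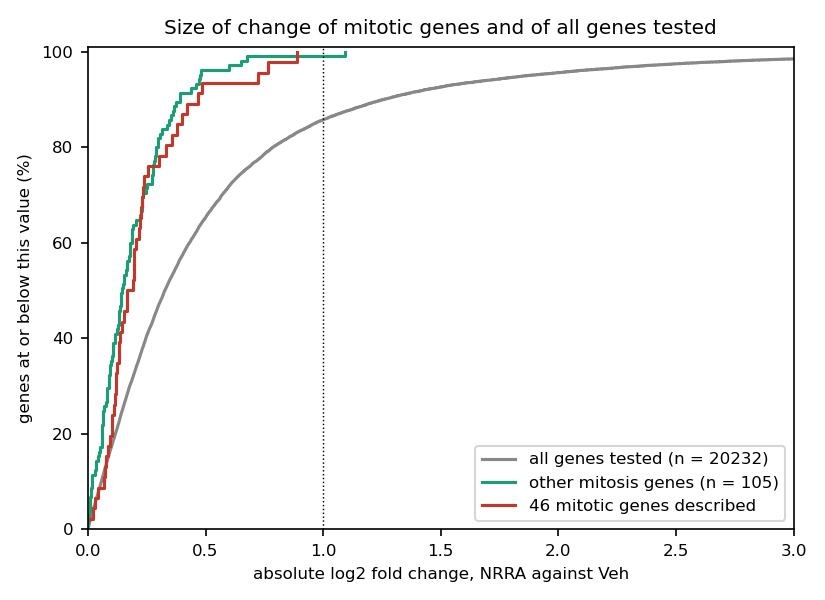
Cumulative share of genes (vertical axis, %) at or below each absolute log2 fold change of NRRA against Veh (horizontal axis, cut at 3), for all 20232 genes tested (grey), 105 other mitosis genes (green) and the 46 mitotic genes described (red). The red and green curves rise faster than the grey one, with medians of 0.18 and 0.14 against 0.33, and no red step lies beyond the dotted 2-fold line. The grey curve also holds noisier genes of low count.

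Many late cell cycle genes carry in their promoters a cell cycle genes homology region (CHR), the element through which MuvB complexes act, together with CCAAT boxes that NF-Y binds. Promoter windows of 300 bases around the RefSeq start sites (GRCm38.p6) were found for 36 of the 46 genes, in 39 windows because some genes have more than 1 start, and were searched on both strands for TTTGAA and TTCGAA, the core letters of the CHR, and for CCAAT. The letters TTTGAA stood in 27 of the 39 windows (69.2%), against 12.5% of 16484 windows of tested genes and 17.9% of all 32851 windows. Either CHR form stood in 74.4% of the windows of mitotic genes and in 14.3% of those of tested genes. CCAAT stood in 76.9% against 37.5%, and both kinds of motif in 66.7% against 5.75%. Over 109 windows of 105 related mitosis genes, described further on, TTTGAA stood in 41.3%, either CHR form in 46.8%, CCAAT in 51.4% and both kinds in 25.7%. The letters TTTGAA appear as TTCAAA when the element lies on the other strand, and a CCAAT box then appears as ATTGG. The form TTCGAA is its own reverse complement. The CHR forms cannot share bases with each other but may share 1 with a CCAAT box. A match is a description of the letters and not a bound site.

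Upstream sequences are shown for 4 of the genes with TTTGAA before the start site, to let one that fell, some that rose and Cdk1 itself be compared. They were taken by the size of the change from those with at most 30 of the 150 bases in an annotated exon of the gene, and Cdk1 comes next in that order. Each gives the 150 bases that end just before the RefSeq start, 5′ to 3′ on the gene's strand, with TTTGAA (or TTCAAA) and CCAAT (or ATTGG) in capitals.
Espl1, chr15:102296143-102296292, plus strand: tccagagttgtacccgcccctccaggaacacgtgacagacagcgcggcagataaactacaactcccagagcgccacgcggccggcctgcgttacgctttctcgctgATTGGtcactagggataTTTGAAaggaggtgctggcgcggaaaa
Mki67, chr7:135716380-135716529, minus strand: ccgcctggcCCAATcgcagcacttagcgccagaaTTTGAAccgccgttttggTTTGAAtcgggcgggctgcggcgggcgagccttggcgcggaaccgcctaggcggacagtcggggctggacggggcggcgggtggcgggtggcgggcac
Prc1, chr7:80294326-80294475, plus strand: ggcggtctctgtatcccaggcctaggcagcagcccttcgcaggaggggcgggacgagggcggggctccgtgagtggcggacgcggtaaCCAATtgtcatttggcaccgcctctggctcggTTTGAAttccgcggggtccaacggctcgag
Cdk1, chr10:69352913-69353062, minus strand: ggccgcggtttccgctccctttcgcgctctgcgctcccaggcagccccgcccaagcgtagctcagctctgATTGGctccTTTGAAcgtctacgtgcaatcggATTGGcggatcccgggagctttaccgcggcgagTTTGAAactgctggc
Espl1, which fell, Mki67 and Prc1, which rose, and Cdk1, which did not pass the threshold, each held both kinds of letters in these bases. Of the 26 genes with a CHR form in the window, 11 were higher, 6 were lower and 9 were not called, with a median log2 fold change of 0.04 and a range from -0.38 to 0.42. Of the 10 genes with a window but no CHR form, 9 were higher and Cdc25a was lower, with a median of 0.22 and a range from -0.16 to 0.89. Over all tested genes, 27.9% were higher and 28.4% lower. These counts describe the genes at hand and were not tested. The windows of Aurkb, Bora, Cdc25c, Dlgap5, Incenp, Kif20a, Pkmyt1, Spc24, Tpx2 and Wee1 were not analysed here.

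**Figure D2:**
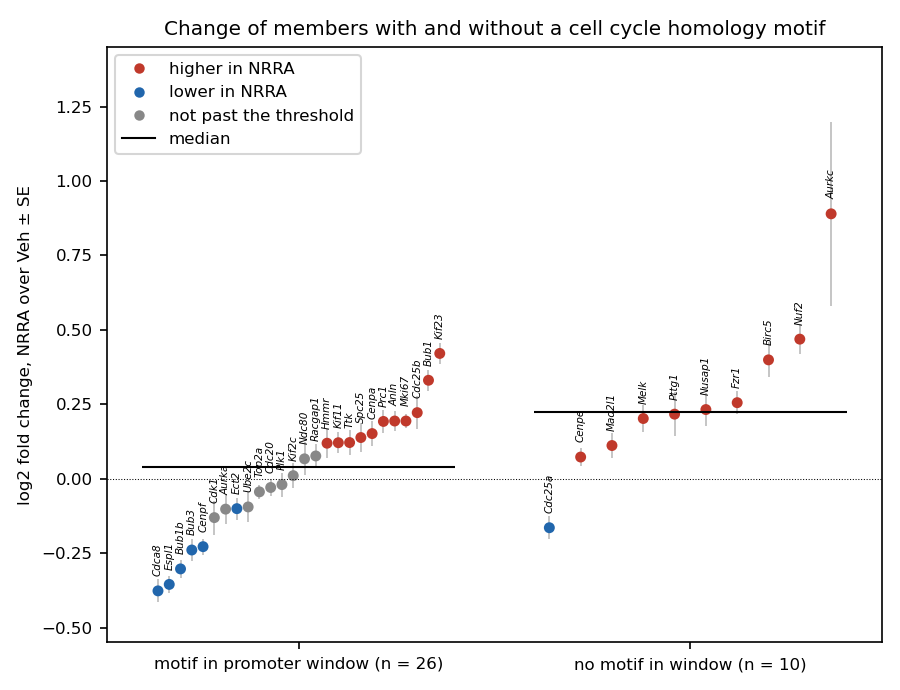
Log2 fold change of NRRA over Veh ± SE (vertical axis) for the 36 mitotic genes with a promoter window, by whether the window held a CHR form (26 genes, left) or not (10 genes, right), with the median as a line. Genes with the motif spread to both sides of 0 around 0.04, and those without it lie above 0 except for Cdc25a.

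The switch at Cdk1 showed the largest differences outside the Aurora kinases. Cdc25c, a phosphatase that activates Cdk1 at the entry into mitosis, stood at 11.9 and 13.1 CPM in Veh and at 21.2 and 21.3 CPM in NRRA, which corresponds to 0.76 on the log2 scale (SE 0.087, adjusted p by edgeR 2.67e-08). Both NRRA libraries lay well above both Veh libraries. Pkmyt1 (ENSMUSG00000023908, GRCm38 chromosome 17, 23726336 to 23736735, plus strand), the membrane-bound kinase that inhibits Cdk1, stood at 17.7 and 16.0 CPM in Veh and at 27.1 and 28.4 CPM in NRRA, a log2 fold change of 0.72 (SE 0.077, adjusted p 1.02e-08). An activator and an inhibitor of the same kinase thus rose side by side, by 69.8% and 64.8%. Their relatives moved less. Cdc25b rose from 38.7 and 39.9 CPM to 45.2 and 46.6 CPM (0.22, SE 0.055). Cdc25a, which also acts at the start of S phase, fell from 97.0 and 94.8 to 85.6 and 85.5 CPM (log2 fold change -0.16, SE 0.039). Wee1, the nuclear inhibitory kinase, fell from 144 CPM in both Veh libraries to 131 and 132 CPM (-0.13, SE 0.033).

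Cdk1 itself stood at 42.2 and 43.6 CPM in Veh and at 40.2 and 38.1 CPM in NRRA, a log2 fold change of -0.13 with a 95% interval from -0.25 to -0.01 that missed the threshold after adjustment (adjusted p 0.0535). Cdk1 gained a call as lower with replicate number as a block, and its value ran from -0.17 to -0.04 over the alternatives. Within a library, ratios of counts do not depend on the scaling of library sizes. The ratio of Cdc25c to Cdc25a counts was 0.122 and 0.138 in Veh and 0.248 and 0.249 in NRRA, and that of Pkmyt1 to Wee1 was 0.123 and 0.111 against 0.207 and 0.214. Of the exonic bases of Cdc25c, 12.7% overlap Gm3550 on the opposite strand, and of those of Pkmyt1, 8.76% overlap Paqr4, so that reads of these pairs could be mixed if strand was not used in counting. With unscaled library sizes the falls of Cdc25a and Wee1 shrank to -0.07 and -0.04 and lost their calls.

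The Polo and Aurora A kinases, which mature the centrosomes and build the spindle poles, did not pass the threshold. Plk1 stood at 93.2 and 91.0 CPM in Veh and at 88.6 and 93.2 CPM in NRRA, overlapping values with a log2 fold change of -0.02 and a 95% interval from -0.10 to 0.06 (0.07 with unscaled library sizes, not called). Aurka stood at 56.6 and 57.2 CPM against 52.2 and 53.8 CPM (-0.10, adjusted p 0.0803), both NRRA libraries being lower. Bora, the cofactor through which Aurora A activates Plk1, stood at 50.1 and 47.8 CPM against 51.3 and 52.3 CPM (0.08, adjusted p 0.178), and was called higher with unscaled library sizes (0.17). The spindle partner of Aurora A was higher, since Tpx2, which binds Aurora A and targets it to microtubules, rose from 124 and 118 CPM to 140 and 142 CPM (0.23, SE 0.035, adjusted p 4.74e-06). Melk, a kinase abundant in dividing progenitor cells, rose from 73.0 and 79.4 to 89.0 and 86.4 CPM (0.20, SE 0.045). The count ratio of Tpx2 to Aurka was 2.19 and 2.06 in Veh and 2.69 and 2.64 in NRRA.

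The chromosomal passenger complex joins Aurora B with Incenp, survivin (Birc5) and borealin (Cdca8), and corrects wrong attachments of chromosomes to the spindle. Its subunits parted. Birc5 rose from 36.5 and 35.3 CPM in Veh to 49.3 and 45.4 CPM in NRRA (log2 fold change 0.40, SE 0.058, adjusted p 1.71e-06). Cdca8 (ENSMUSG00000028873, chromosome 4, 124918465 to 124939311, minus strand) fell from 118 and 113 CPM to 88.9 and 88.6 CPM (-0.38, SE 0.039, adjusted p 4.26e-09), the largest fall of the 46 genes. The ratio of Birc5 to Cdca8 counts was 0.310 and 0.314 in Veh and 0.554 and 0.512 in NRRA, a 1.71-fold shift between subunits of one complex. The kinase Aurkb rose from 61.6 and 61.1 CPM to 66.4 and 69.0 CPM (0.14, SE 0.046), a call that was lost with DESeq2 and without NRRA replicate 2 (0.11). Its scaffold Incenp fell from 234 and 228 CPM to 216 and 210 CPM (-0.12, SE 0.030), a call that was lost with unscaled library sizes (-0.03).

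Aurkc, the Aurora kinase used in the meiotic divisions of germ cells, had the largest log2 fold change and the largest SE. Veh libraries had 29 and 24 counts and NRRA libraries 67 and 42, or 1.07 and 0.807 against 2.06 and 1.40 CPM, and no other of the 46 genes had fewer than 322 counts in a library. The groups did not overlap, and the log2 fold change was 0.89 (SE 0.31, 95% interval 0.25 to 1.53, adjusted p 0.0163). The value was 0.69 without Veh replicate 2 and 0.58 without NRRA replicate 1, where the call was lost, as it was with DESeq2. It was 1.10 without Veh replicate 1 and 1.14 without NRRA replicate 2, past 2-fold, and the call was kept. The whole of its longest transcript has a near-identical copy in the pseudogene Gm7789, so that its counts are uncertain.

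In the spindle assembly checkpoint, which holds anaphase until every kinetochore is attached, the paired kinases Bub1 and Bub1b moved apart. Bub1 (ENSMUSG00000027379, chromosome 2, 127801122 to 127831865, minus strand), which marks centromeres by phosphorylating histone H2A, rose from 110 and 117 CPM in Veh to 142 and 143 CPM in NRRA (log2 fold change 0.33, SE 0.036, adjusted p 1.31e-08). Bub1b (ENSMUSG00000040084, chromosome 2, 118598211 to 118641591, plus strand), whose product BubR1 is part of the complex that inhibits Cdc20, fell from 202 and 208 CPM to 167 and 166 CPM (-0.30, SE 0.031, adjusted p 3.25e-09). In neither gene did the groups overlap. The count ratio of Bub1 to Bub1b rose from 0.545 and 0.561 to 0.854 and 0.863, a 1.55-fold shift. Their common partner Bub3 fell from 127 and 129 to 109 and 107 CPM (-0.24, SE 0.036). Ttk, the kinase that starts checkpoint signalling, and Mad2l1, whose product Mad2 binds Cdc20, had small rises of 0.12 (SE 0.042) and 0.11 (SE 0.042). Both calls were lost with DESeq2, without Veh replicate 1 (0.10 and 0.11) and without NRRA replicate 1 (0.11 and 0.09), that of Ttk also without NRRA replicate 2 (0.13) and that of Mad2l1 without Veh replicate 2 (0.11).

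At the kinetochore, the plate of proteins on the centromere that binds microtubules, 5 of 7 genes rose (71.4%) and 1 fell (14.3%), against 27.9% and 28.4% of all tested genes. Among the 4 subunits of the Ndc80 complex, which holds the end of the microtubule, Nuf2 rose from 41.4 and 41.7 CPM to 57.8 and 57.1 CPM (log2 fold change 0.47, SE 0.051, adjusted p 1.5e-08), and Spc24 rose from 26.3 and 25.9 CPM to 36.5 and 36.4 CPM (0.48, SE 0.063, adjusted p 2.78e-07). The libraries of each group nearly coincided in both genes, and the groups lay well apart. Their direct partners in the complex moved less, with 51.1 and 46.4 against 49.8 and 52.2 CPM for Ndc80, whose groups overlapped (0.07, adjusted p 0.322, and called higher at 0.16 with unscaled library sizes), and 51.2 and 50.9 against 57.0 and 55.3 CPM for Spc25 (0.14, SE 0.050). Counts of Nuf2 relative to Ndc80 were 0.810 and 0.899 in Veh and 1.16 and 1.10 in NRRA, and that of Spc24 to Spc25 was 0.513 and 0.509 against 0.640 and 0.658. The call of Spc25 was lost without Veh replicate 2 (0.13), without NRRA replicate 1 (0.12) and with DESeq2.

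Cenpf, a large protein of the outer kinetochore and the nuclear envelope, fell from 424 and 419 CPM to 352 and 368 CPM (-0.23, SE 0.027, adjusted p 4.54e-08). Cenpa, the histone H3 variant that defines the centromere, rose by 0.15 (SE 0.042). Cenpe, a kinesin that brings chromosomes to the spindle equator, stood at 180 and 176 CPM in Veh and at 186 and 188 CPM in NRRA, the smallest called change (0.07, SE 0.031, adjusted p 0.0468). That call was lost with DESeq2, with replicate number as a block (0.07), without Veh replicate 2 (0.05), without NRRA replicate 1 (0.09) and without NRRA replicate 2 (0.06).

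**Figure D3:**
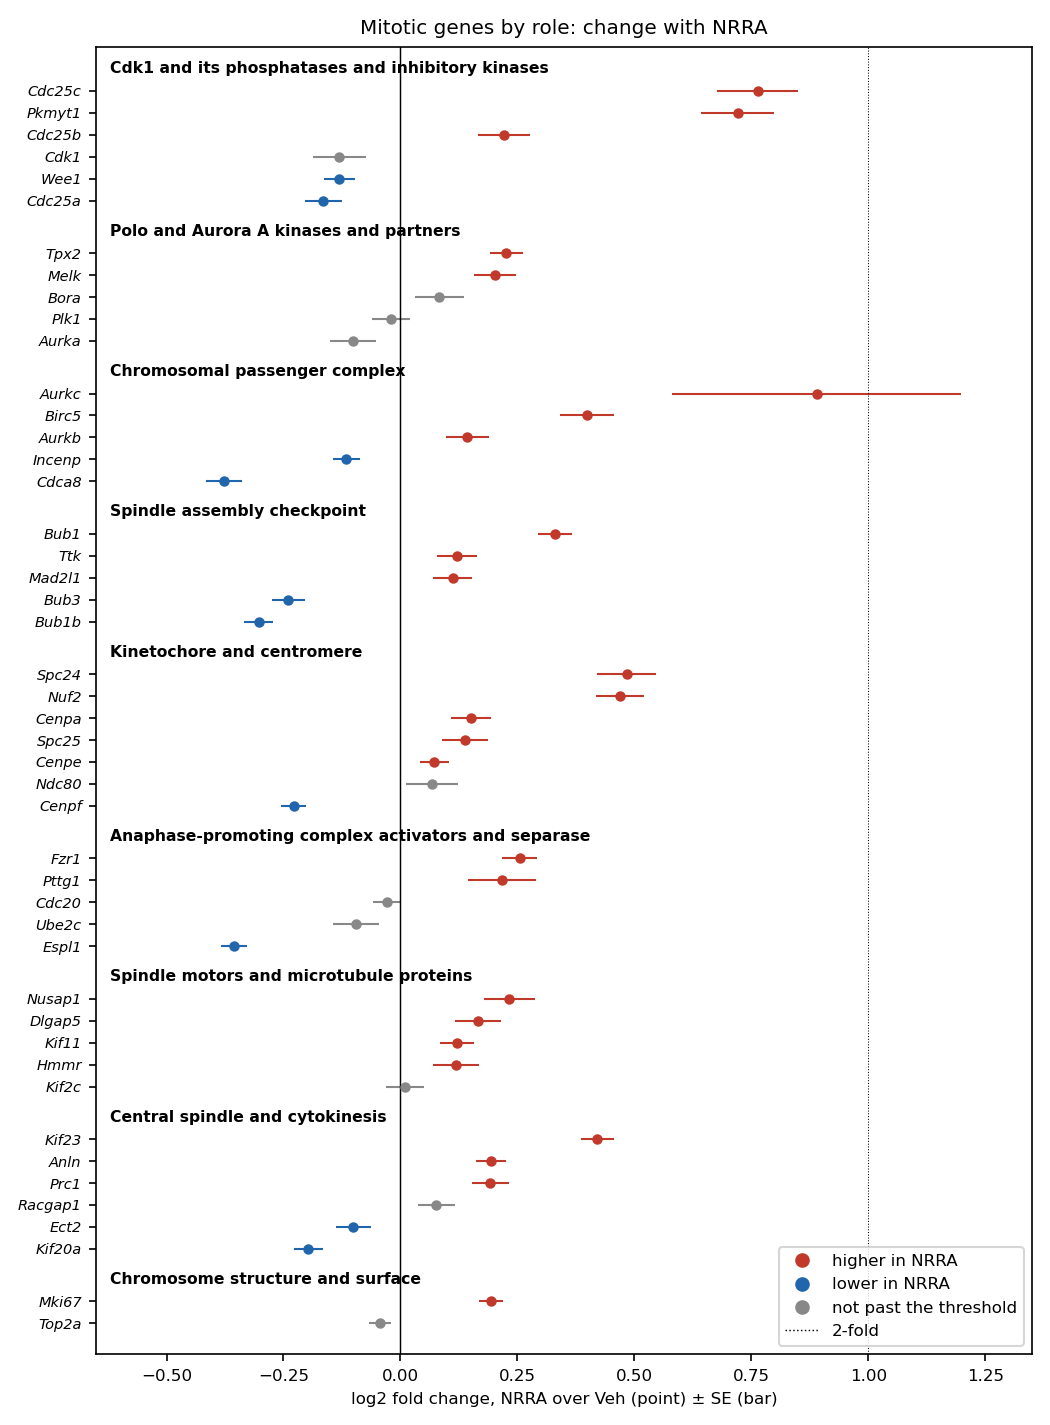
Log2 fold change of NRRA over Veh (point) ± SE (bar) of the 46 mitotic genes, by role, with genes that passed the threshold in red (higher) or blue (lower) and the others in grey. Each role other than the Polo and Aurora A kinases, the spindle motors and the pair of chromosome genes holds genes of both called directions, from Cdca8 at -0.38 to Aurkc at 0.89.

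The enzymes of the exit from mitosis also differed in direction. Separase, encoded by Espl1 (ENSMUSG00000058290, chromosome 15, 102296266 to 102324357, plus strand), fell from 274 and 272 CPM in Veh to 212 and 215 CPM in NRRA (log2 fold change -0.36, SE 0.028, adjusted p 3.00e-11), the smallest adjusted p of the 46 genes. Securin (Pttg1), its inhibitor, stood at 21.4 and 20.5 CPM in Veh and at 24.5 and 24.2 CPM in NRRA (0.22, SE 0.073). Pttg1 counts relative to those of Espl1 rose 1.49-fold, from 0.0781 and 0.0754 to 0.115 and 0.113. The call of Pttg1 was lost with DESeq2 and without Veh replicate 2 (0.19), NRRA replicate 1 (0.21) or NRRA replicate 2 (0.23).

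Of the activators of the APC/C, Fzr1 (Cdh1), which acts late in mitosis and in G1, rose from 95.4 and 94.6 CPM to 112 and 115 CPM (0.26, SE 0.038, adjusted p 1.94e-06). Cdc20, which acts at the onset of anaphase, stood at 211 CPM in both Veh libraries and at 203 and 210 CPM in NRRA (-0.03, 95% interval -0.09 to 0.03, and 0.06 with unscaled library sizes). The count ratio of Fzr1 to Cdc20 was 0.452 and 0.449 in Veh, and each NRRA library had 0.549. Ube2c, the ubiquitin-conjugating enzyme of the APC/C, stood at 80.1 and 71.2 CPM against 70.1 and 71.4 CPM, overlapping groups (-0.09, adjusted p 0.106). Its value was -0.18 without Veh replicate 2, and 22.8% of its exonic bases overlap Tnnc2 on the opposite strand.

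The spindle motors and microtubule proteins held small rises and no fall. Nusap1, which bundles microtubules near chromosomes, rose from 39.7 and 39.6 CPM to 47 and 46.2 CPM (0.23, SE 0.054). Dlgap5 rose by 0.17 (SE 0.049), Kif11, the motor that pushes the spindle poles apart, by 0.12 (SE 0.036), and Hmmr, a spindle pole protein, by 0.12 (SE 0.049), all on the log2 scale. Kif2c, which takes apart microtubules at centromeres, stood at 111 and 116 CPM in Veh and at 119 and 109 CPM in NRRA, overlapping values without a called change (0.01, 95% interval -0.07 to 0.10), though with unscaled library sizes it was called higher (0.10). The calls of Dlgap5 and Hmmr were lost with DESeq2, and those of all 3 also without single libraries. Kif11 lost its call without Veh replicate 2 (0.10) and without NRRA replicate 2 (0.10), Hmmr without those (0.09 and 0.15) and without NRRA replicate 1 (0.09), and Dlgap5 without NRRA replicate 1 (0.15).

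The central spindle directs the cleavage furrow between the separating chromosomes, and its kinesins changed in opposite directions. Kif23, the motor subunit of centralspindlin, rose from 103 and 105 CPM in Veh to 138 and 140 CPM in NRRA (log2 fold change 0.42, SE 0.035, adjusted p 9.76e-11). Its partner in centralspindlin, Racgap1, stood at 87.0 and 88.5 CPM against 92.1 and 93.0 CPM (0.08, adjusted p 0.103, and called higher at 0.17 with unscaled library sizes), so that the count ratio of the partners went from 1.18 and 1.19 to 1.5 and 1.51. Kif20a, the kinesin that carries Aurora B to the midzone, fell from 215 and 220 CPM to 186 and 194 CPM (-0.20, SE 0.031, adjusted p 4.80e-06). Of its exonic bases, 29.3% overlap Cdc23 on the opposite strand. The count ratio of Kif23 to Kif20a shifted 1.53-fold, from 0.480 and 0.477 to 0.744 and 0.724.

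Prc1, which bundles the antiparallel microtubules of the midzone and has 11.1% of its exonic bases over Rccd1 on the opposite strand, rose by 0.19 (SE 0.040). Anln, a scaffold of the contractile ring, also rose by 0.19 (SE 0.033). Ect2, the exchange factor that activates RhoA at the furrow, fell from 104 and 105 CPM to 97.8 and 97.2 CPM (-0.10, SE 0.037, adjusted p 0.0241). That call was lost with unscaled library sizes (-0.01), with DESeq2, with no filter on low counts (-0.09), and without Veh replicate 2 (-0.10), NRRA replicate 1 (-0.10) or NRRA replicate 2 (-0.10).

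The most counted of the 46 genes were the general marks of dividing cells. Mki67, which coats mitotic chromosomes and is used as a proliferation marker, stood at 527 and 511 CPM in Veh and at 585 and 602 CPM in NRRA, a rise of 0.19 on the log2 scale (SE 0.025, adjusted p 2.02e-07). Top2a, the topoisomerase that untangles sister chromatids, stood at 536 and 538 CPM against 519 and 523 CPM (-0.04, SE 0.024, adjusted p 0.114). The groups were apart in each gene, with Top2a lower in NRRA here and at 0.05 with unscaled library sizes, and the change in Mki67 alone passed the threshold. Relative to Top2a, Mki67 counts were 0.982 and 0.950 in Veh and 1.13 and 1.15 in NRRA.

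**Figure D4:**
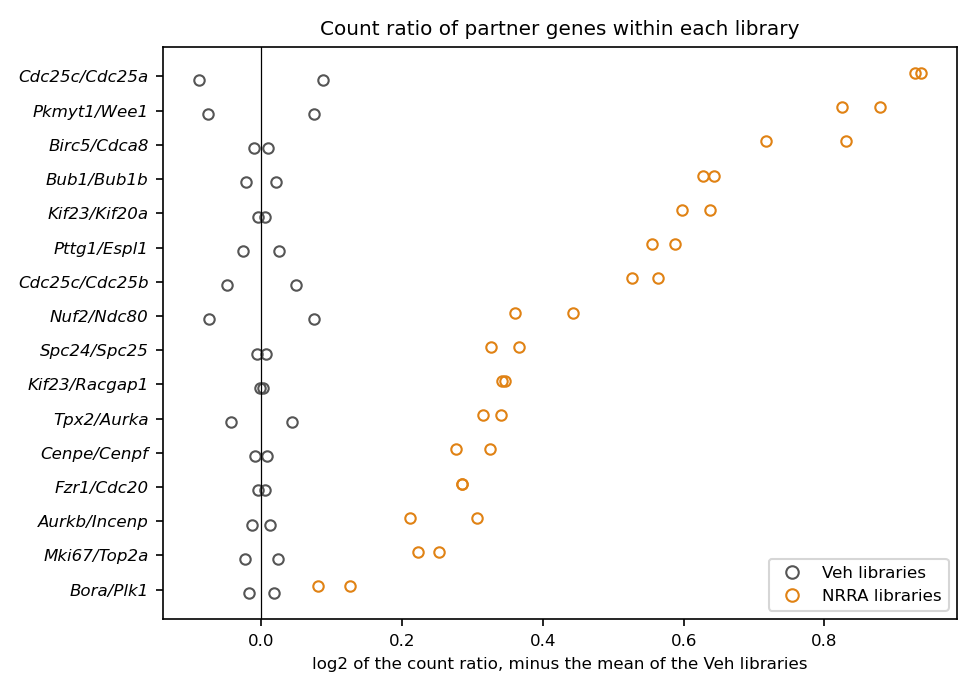
Log2 of the ratio of counts of partner genes within each library, minus the mean of the Veh libraries (horizontal axis), for 16 pairs, with Veh libraries in grey and NRRA libraries in orange. The pairs, and which gene stands on top of the ratio, were chosen after the values were seen. The NRRA libraries lie to the right of the Veh libraries in all 16, from a 1.07-fold shift for Bora/Plk1 to 1.91-fold for Cdc25c/Cdc25a.

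The partner ratios are a description, since the pairs were chosen with their values in view and an exact permutation test of 2 against 2 libraries cannot go below 0.333, two-sided. Levels of different genes were compared as CPM per kilobase of exon. On that scale the 46 genes lay between the 24.5th percentile (Aurkc) and the 98.8th percentile (Cdc20) of tested genes, with a median at the 80.5th, and 44 of them were at or above the 50th. Cdc20 was the highest, at 113 CPM per kilobase in both Veh libraries and 109 and 112 in NRRA, followed by Top2a with 59.5 and 59.7 against 57.6 and 58.1. Mki67 passed from below Incenp in Veh (52.3 and 50.8 against 54.0 and 52.7 CPM per kilobase) to above it in NRRA (58.1 and 59.9 against 49.9 and 48.6). Plk1 and Wee1 were close neighbours in this order, with 42.4 and 41.4 CPM per kilobase for Plk1 and 42.2 in both libraries for Wee1 in Veh, a difference within the spread between libraries. The lowest were Pkmyt1, Cdc25c (2.41 and 2.66 against 4.31 and 4.33 CPM per kilobase) and Aurkc, the 3 genes with the largest log2 fold changes.

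**Figure D5:**
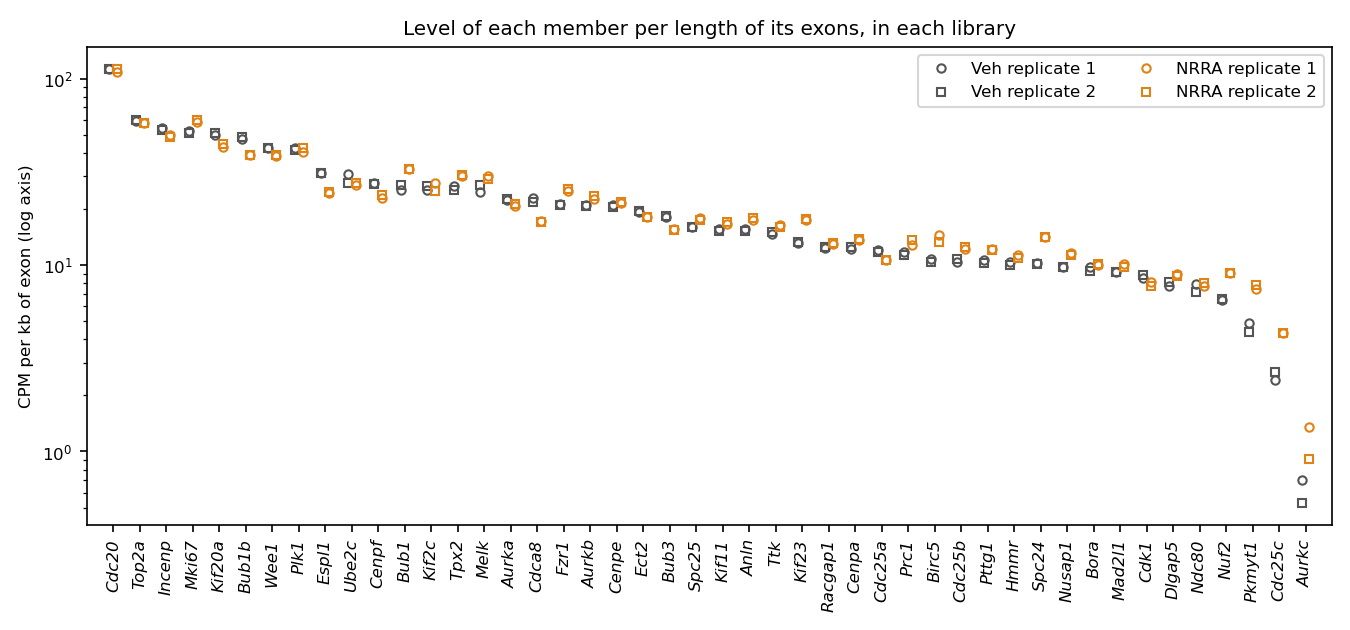
CPM per kilobase of exon (vertical log axis) of each of the 46 mitotic genes in the Veh libraries (grey) and the NRRA libraries (orange), in order of the mean level. Replicate symbols nearly coincide except for Aurkc, and the levels run from 113 (Cdc20) to under 1 (Aurkc in Veh).

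Other genes of the same processes, 105 in 8 lists, all passed the filter and also moved little. Of these, 41 were higher in NRRA (39.0%) and 19 were lower (18.1%), together 57.1%, against 27.9%, 28.4% and 56.4% of all tested genes. Fewer in each direction were called with DESeq2, and more higher and fewer lower with unscaled library sizes, as given at the end. Their median log2 fold change was 0.06, with a median absolute value of 0.14. The counts of rises and falls in each list stand against the same shares of all tested genes. The only one called with at least 2-fold was Fbxo43, whose product Emi2 inhibits the APC/C and holds oocytes in metaphase of the second meiotic division. It stood at 3.28 and 2.62 CPM in Veh and at 6.11 and 6.44 CPM in NRRA (1.09, SE 0.16, adjusted p 2.66e-06). In the list of 17 APC/C subunits and inhibitors, 4 rose and 5 fell, the largest fall being that of Cdc26, a small APC/C subunit (-0.46), with near-identical stretches in other genes over 10.3% of its longest transcript.

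The partners of Cdk1 were also mixed. Of 5 cyclins and Cks subunits, Ccna2 alone rose (0.18) and 3 fell, with Cks1b at -0.30, Ccnb1 at -0.10 and Ccnb2 not called at 0.00. Of the longest transcript of Ccnb1, 51.9% has a near-identical copy in the pseudogene Gm12856, and 12.5% of the exonic bases of Ccna2 overlap Exosc9 on the opposite strand, so that both values are uncertain. Among 25 genes of the inner centromere and of the Knl1 and Mis12 complexes, on which the Ndc80 complex and the Bub proteins dock, 7 rose and 3 fell, from Knl1 at 0.47 to Zwint at -0.44. Among 13 further checkpoint and attachment genes, 2 rose and 3 fell, from Spdl1 at 0.28 to Trip13, which takes apart Mad2 complexes, at -0.48. Of 8 condensin subunits, 4 rose, led by Ncapg (0.39), which has 13.4% of its exonic bases over Lcorl on the opposite strand, and Ncaph fell (-0.25).

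Further motors and spindle proteins held 10 rises and 1 fall among 17 genes, from Ckap2l at 0.67 to Kif18b at -0.23. Of 7 other mitotic and centrosome kinases, 4 rose, with Chek1 at 0.29, and 2 fell, with Cdc7 at -0.35. Of 13 genes of the MuvB, B-Myb and Foxm1 regulators, which control transcription of the mitotic genes, 9 rose and 1 fell, from Lin52 at 0.37 to Tfdp1 at -0.09, whose longest transcript is near-identical over 43.2% of its length to the pseudogene Gm7390. Foxm1 stood at 177 and 167 CPM in Veh and at 190 and 195 CPM in NRRA (0.16, SE 0.033, edgeR adjusted p 0.000126). Mybl2, the gene of B-Myb, had overlapping groups, with 11.2 and 12.3 CPM per kilobase in Veh and 12.2 and 13.6 in NRRA. Its longest transcript is near-identical over 28.3% of its length to the pseudogene Gm3320. Across these lists, as among the 46 genes, few log2 fold changes passed 0.5 in size, with 4 of 105 (3.81%) against 34.7% of all tested genes. The latter also hold noisier genes of low count.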

How the data were processed

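Stranded poly(A) RNA-seq libraries of 2 Veh and 2 NRRA cultures were compared. The table deposited by the authors holds raw counts, whole numbers without normalization, for 55421 genes. The submitters' processing notes list bcl2fastq, STAR 2.6.1c, featureCounts 1.6.4 and the mm10 build. The annotation release and the strand setting of the counting are not given in the sources used here, so overlapping and near-identical genes can share reads, and large shares are given beside the genes they touch. The methods describe an oligo-dT kit from Tecan, and the labels also name an Illumina TruSeq kit. Groups came from the labels. The column names of the Veh libraries carry numbers 1 higher than the replicate numbers of the titles and were matched by the sample descriptions. No column of per-sample values was left unused (0).

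Counts were analysed with edgeR 4.0.16 in R 4.3.3, with filterByExpr, TMM scaling, robust quasi-likelihood F tests and Benjamini-Hochberg adjustment over all 20232 genes tested. The SE of a log2 fold change, NRRA over Veh, was derived from the F statistic. DESeq2 1.42.0, which the study's methods name, was run as an alternative beside other scaling, no filter, no robust estimation, replicate number as a block and each library left out. The Veh libraries totalled 28022265 and 30715160 counts and the NRRA libraries 31604769 and 29214798, where 3 counts correspond to between 0.0921 and 0.111 CPM. PCR copies were not told apart, so these limits cover counting error only. Libraries of a group differed by more than sampling noise (chi-square per degree of freedom 2.45 and 1.99) and were counted separately. Coordinates and exon lengths came from GENCODE M21 (GRCm38), near-identical stretches from blastn 2.17.0, and promoters from RefSeq (GRCm38.p6).

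The members and lists were chosen with earlier results of these data known. All 46 genes are named, with the value in every library for the extremes of each role, for changes of at least 0.5 on the log2 scale and for compared partners. Of the other lists, the largest and smallest called changes and Ccna2, Ccnb1 and Ccnb2 are named, and Foxm1 and Mybl2 were added after their values were seen. The summed level of the blood and immune cell markers is not reported here. On simulated counts of 19826 genes with 50 changed genes per size, the test recovered 48% of changes of 1.2-fold, 78% of 1.5-fold and 98% of 2-fold. The changed genes were drawn over a wide range of counts, and rates for the 46 genes alone were not estimated.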

Additional observations from a re-analysis of the deposited data

How the results depend on the processing

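Over 10 alternatives, 411 of the 460 values of the 46 genes kept direction and side of the threshold, 42 lost the call, 7 gained it and 0 called values changed sign. Plk1, Ndc80, Cdc20, Kif2c and Top2a, which were not called, changed sign in at least 1 alternative and had no call where they did. The call of 22 of the 36 called genes held in all 10, 16 higher and 6 lower. The 14 others lost it in at least 1 alternative, and apart from Aurkc their absolute log2 fold changes were at most 0.22. With DESeq2, 17 of the 46 genes were higher and 9 lower, and of the 105 related genes 30 were higher and 11 lower (41 and 19 with edgeR). Over all genes the calls also became fewer, with 4252 higher and 4314 lower against 5654 and 5752 with edgeR. With unscaled library sizes, 30 were higher and 6 lower, Bora (0.17), Ndc80 (0.16), Kif2c (0.10) and Racgap1 (0.17) gained a call, the median log2 fold change was 0.21, 58 of the 105 related genes were higher and 12 lower, and the median of all tested genes moved by less than 0.1. Leaving out 1 library gave medians of the 46 genes from 0.11 to 0.13. The deviations of same-numbered libraries had an r of -0.011 across all tested genes and of 0.45 across the 46 genes, and 2 pairs do not settle whether the numbers pair the libraries. With replicate number as a block, 25 of the 46 genes were higher and 11 lower (5772 and 5836 of all genes), Cenpe lost its call and Cdk1 gained one. Without Veh replicate 1 Cdk1 also gained a call (-0.15), as did Ube2c without Veh replicate 2 (-0.18). Aurkb lost its call with DESeq2 and without NRRA replicate 2 (0.11). The cause of these changes was not tested. Aurkc was the shallowest of the 46 genes, and every other one had at least 322 counts in each library. With 2 libraries a group, calls of small changes depend on how little these libraries varied (common biological coefficient of variation 2.61%).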
